A study of Mus musculus with 2 samples.

Results

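Myc, Jun, Fosl1, Csf1, Nfkbia and Hif1a encode regulators of the early response to growth factors, stress and low oxygen. They were grouped as genes with short-lived mRNAs and AU-rich 3' ends, and neither trait was measured here. The 6 genes, among 7791 with a name, were found on the array as 8 cDNA clones among 16896. Every clone whose Entrez Gene number now belongs to one of these symbols was taken. Myc and Hif1a had 2 clones each and the other genes had 1. The rule reads gene names and no scores, but the genes themselves were chosen with earlier results of these data known.

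The samples were 2 immunoprecipitates from extracts of proliferating C2C12 cells, a mouse myoblast line, one made with the monoclonal HuR antibody 3A2 and one with control IgG. Both came from untreated cells in high-serum medium, collected at 80% confluency. Each antibody was 1 sample read in 3 array runs, named here the unnumbered run, run 3 and run 4 after the column names. The sources do not say whether a run was a fresh immunoprecipitation or the same RNA hybridised again, so no test between the antibodies was made. Every SD below is the spread between runs and not between independent immunoprecipitations. Myod1, Myf5, Myog and Des, which mark myoblasts, had 0 named clones, so the cell type could not be checked against them.

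HuR (Elavl1) binds AU-rich and U-rich stretches, mostly in 3' untranslated regions, and is known for prolonging the life of many such mRNAs or altering their translation. In muscle cells HuR is known to act on transcripts that guide differentiation. AU-rich elements otherwise draw decay factors such as tristetraprolin (Zfp36), which compete with HuR for the same mRNAs. The 3' end sequences of these transcripts were not used here.

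All scores are z scores, centred so that the median clone of each run is 0. A difference is the HuR score minus the IgG score of the same run, averaged over the 3 run pairs, in z score units. The log base behind the scores is not given in the sources used here, so no fold change can be stated. The scores compare recovery with both antibodies and hold no measure of how much of each mRNA the cells contained. Fewer transcripts per cell and fewer cells with the transcript cannot be told apart in them.

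None of the 8 clones reached a difference of 1 unit in either direction. Of all 16896 features, 1.13% were at least 1 unit higher with HuR and 0.166% at least 1 unit lower. The differences of the 8 clones ran from -0.21 for Fosl1 to 0.52 for one Myc clone. The central span of all features, from the 5th to the 95th percentile, was -0.38 to 0.46, with a median of -0.03. Of the 8 clones, 7 were above 0, against 44.3% of all features. Only 2 clones, one of Myc and that of Csf1, were higher with HuR in every run pair, against 11.1% of all features, and 0 were lower in every pair, against 12%. For 1 clone, of Myc, the lowest HuR run lay above the highest IgG run, against 3.88% of all features. The reverse held for 0 clones, against 2.56%. Differences agreed weakly between run pairs over all 16896 features. Pearson's r was 0.03 for the unnumbered pair and pair 3, 0.31 for the unnumbered pair and pair 4, and 0.10 for pairs 3 and 4.

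**Figure D1:**
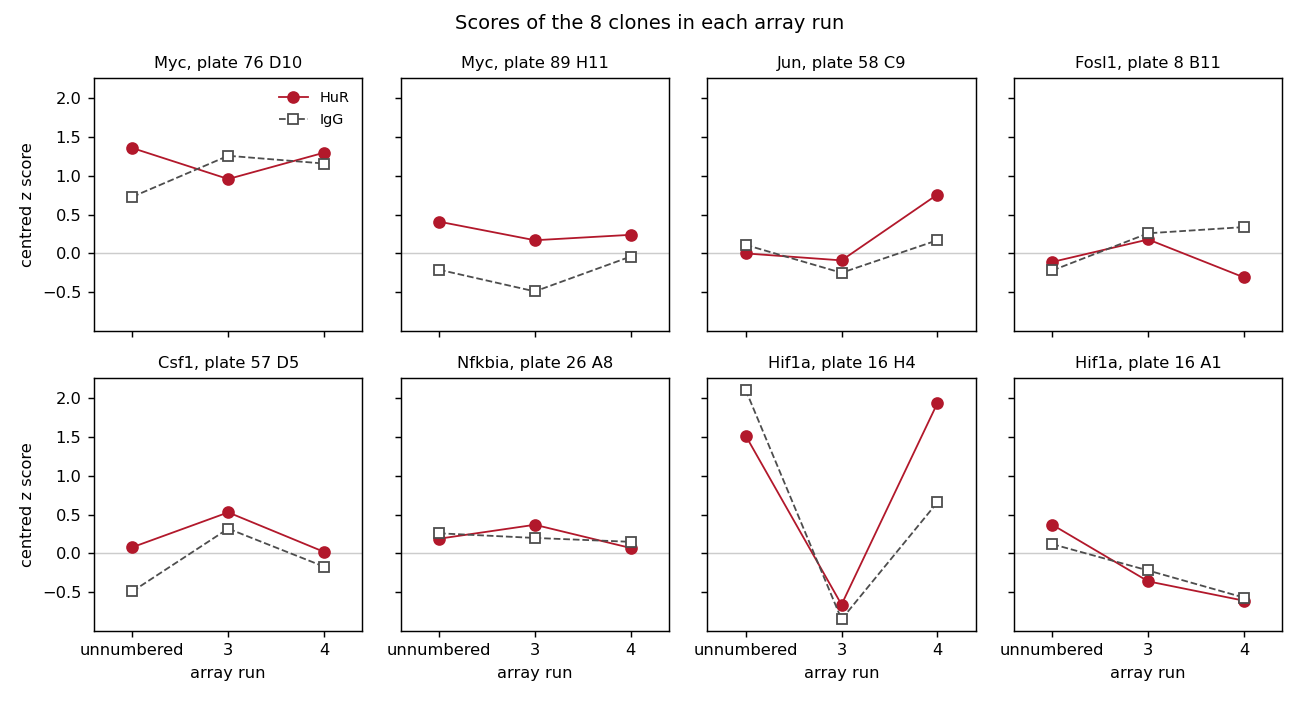
Centred z scores of each clone in the 3 array runs, with HuR as filled circles and IgG as open squares, 1 panel per clone named by gene, source plate and well. The Myc clone of plate 89 is the 1 clone whose HuR scores all lie above its IgG scores.

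Myc, a basic helix-loop-helix transcription factor that drives growth and proliferation (Entrez Gene 17869, chromosome 15 in the deposited table), had clones on plates 76 and 89. The dimmer clone, in well H11 of plate 89, scored 0.41, 0.17 and 0.24 with HuR in the unnumbered run, run 3 and run 4, and -0.21, -0.49 and -0.04 with IgG. All HuR scores of this clone were above all IgG scores. Its difference was 0.52 ± 0.21 (SD, 3 run pairs), and 4.10% of all features were at least as high. Among the 1697 features in the same signal decile, the 95th percentile was 0.40, so this clone lay above that span.

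The brighter Myc clone, in well D10 of plate 76, scored 1.36, 0.96 and 1.30 with HuR and 0.73, 1.26 and 1.16 with IgG. These scores overlapped, and run 3 was higher with IgG. The difference was 0.16 ± 0.47, within the spread of its run pairs. The Myc clones were thus 0.36 apart. Among 1179 genes with exactly 2 clones on separate plates, the median gap was 0.20 and the 90th percentile 0.63, and 72.2% had a gap no larger than that of Myc. Taken as the median of both clones, Myc was higher with HuR by 0.34 ± 0.25, with 0.63, 0.18 and 0.21 in the single run pairs. Without the unnumbered pair it was 0.20.

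Jun and Fosl1 (Fra-1) are subunits of AP-1, the dimeric transcription factor that growth factors and stress induce. The Jun clone (Entrez Gene 16476, chromosome 4, plate 58, well C9) scored 0.00, -0.09 and 0.76 with HuR and 0.11, -0.25 and 0.17 with IgG. The antibodies overlapped, and run 4 with HuR was the one score that stood apart. The difference was 0.21 ± 0.35, and without run pair 4 it was 0.03. The Fosl1 clone (Entrez Gene 14283, chromosome 19, plate 8, well B11) scored -0.11, 0.18 and -0.31 with HuR and -0.22, 0.26 and 0.34 with IgG. It was the 1 clone with a negative difference, at -0.21 ± 0.40. That value came from run pair 4, at -0.65, while the unnumbered pair was at 0.11 and pair 3 at -0.08. Without run pair 4 the Fosl1 difference was 0.02. Run pair 4 thus held the highest Jun difference and the lowest Fosl1 difference.

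Csf1, the secreted growth factor that sustains macrophages (Entrez Gene 12977, chromosome 3, plate 57, well D5), scored 0.08, 0.53 and 0.02 with HuR and -0.49, 0.32 and -0.17 with IgG. HuR was above IgG in each run, by 0.57, 0.21 and 0.19, although the scores overlapped across runs. The difference of 0.32 ± 0.21 was larger than the spread of its run pairs, and 9.19% of all features were at least as high. Without the unnumbered pair it was 0.20. Run 3 was the highest run with either antibody.

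Nfkbia encodes I kappa B alpha, which holds NF-kappa-B in the cytoplasm and is itself induced by NF-kappa-B. Its clone (Entrez Gene 18035, chromosome 12, plate 26, well A8) scored 0.19, 0.37 and 0.07 with HuR and 0.26, 0.20 and 0.15 with IgG. These scores overlapped closely, and the difference was 0.01 ± 0.14. Its spread between IgG runs was among the smaller ones, since 96.9% of all features had at least as large an SD.

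Hif1a encodes the oxygen-regulated subunit of hypoxia-inducible factor (Entrez Gene 15251, chromosome 12), and both of its clones came from plate 16. The brighter clone, in well H4, scored 1.52, -0.66 and 1.94 with HuR and 2.11, -0.85 and 0.66 with IgG. Run 3 was far below the other runs with both antibodies. Only 0.568% of all features had an SD between HuR runs as large as its 1.40, and 0.373% had an SD between IgG runs as large as its 1.48. Its difference was 0.29 ± 0.94, made of -0.59, 0.19 and 1.28, so the run pairs disagreed on the direction.

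The dimmer Hif1a clone, in well A1, scored 0.37, -0.36 and -0.61 with HuR and 0.12, -0.22 and -0.57 with IgG. With both antibodies the unnumbered run was highest and run 4 lowest, and the difference was 0.02 ± 0.20. This was the 1 clone outside the brighter 50% of features. The gap between the Hif1a clones was 0.27. Among 65 genes with exactly 2 clones on 1 plate, the median gap was 0.14, and 70.8% had a gap no larger than that of Hif1a. The median of both clones was 0.16 ± 0.41, and without run pair 4 it was -0.07.

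**Figure D2:**
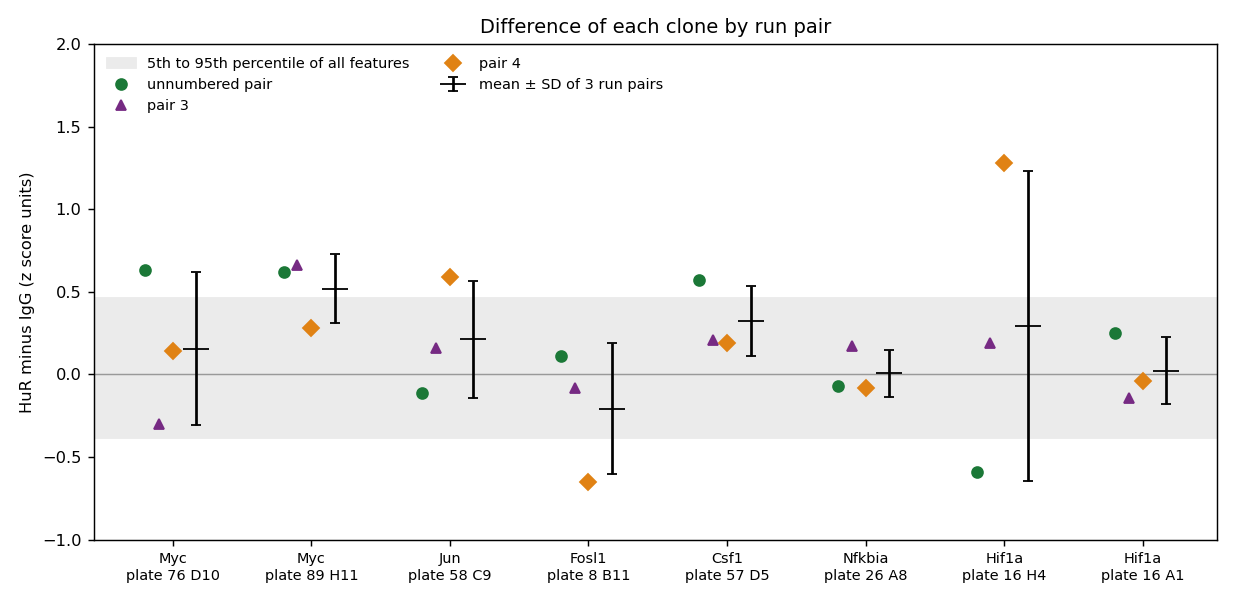
HuR minus IgG in z score units for each clone, with 1 symbol per run pair and the mean ± SD of the 3 pairs, over a band from the 5th to the 95th percentile of all features. The brighter Hif1a clone has the widest spread, from -0.59 to 1.28, and the Myc clone of plate 89 and Csf1 are the clones with all 3 pairs above 0.

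As a group, the 6 genes had a median difference of 0.19, against -0.04 over all 7791 named genes, and 5 of the 6 were above 0, against 42.2% of all genes. By run pair the median was 0.02, 0.17 and 0.20, with 3, 5 and 4 genes above 0. Myc and Csf1 were higher in every run pair at the gene level, against 11.7% of all genes. Without run pair 4 the median of the 6 genes was 0.04. Of the 8 clones, 2 had a difference larger than 1 SD of their run pairs and 1, the Myc clone of plate 89, larger than 2 SD, against 20.7% and 6.45% of all features.

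The signal of a clone, its mean score over both antibodies, bears on how far a difference can be read. The brighter Myc clone lay at the 86.5th percentile of signal and the brighter Hif1a clone at the 79.3rd. Nfkbia lay at 60.1, Jun at 56.0, Csf1 at 52.5, Fosl1 at 51.5, the dimmer Myc clone at 50.9 and the dimmer Hif1a clone at 39.3. Most of the clones were thus near the middle of the array. The median SD of run pairs was 0.26 in the signal decile that holds Jun, Fosl1, Csf1 and the dimmer Myc clone, and 0.37 in the decile of the brighter Myc clone. Signal is no measure of mRNA abundance here, since spots of different clones cannot be set against each other. The clone of Alb, the serum albumin made by liver, lay at the 77.4th percentile, above 6 of the 8 clones. The Alb clone was lower with HuR, with a difference of -0.43 ± 0.17. Compared with features of their own signal decile, 7 of the 8 clones lay between the 5th and the 95th percentile of the difference.

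**Figure D3:**
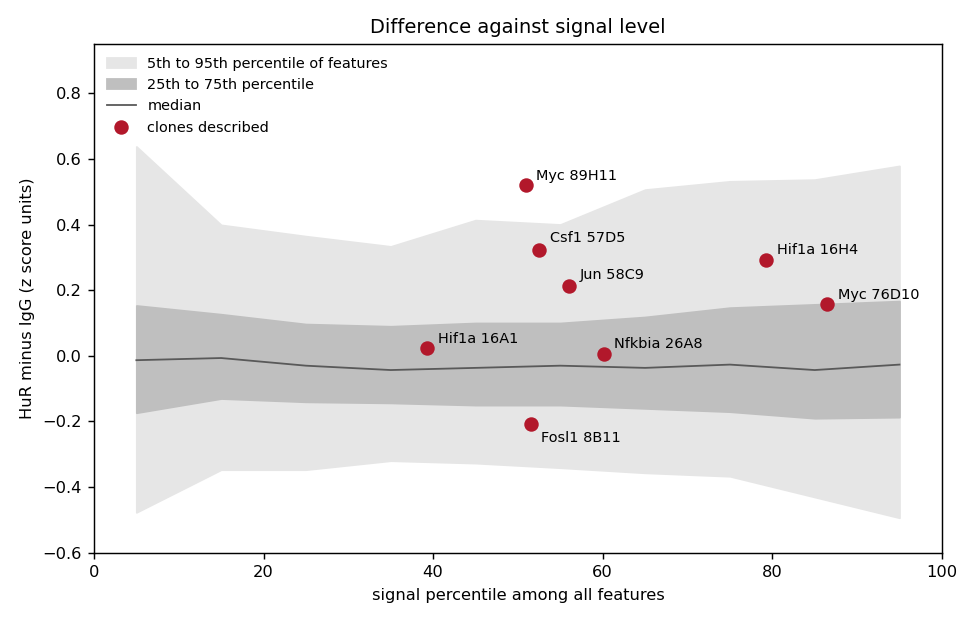
HuR minus IgG in z score units against the percentile of signal, with the 8 clones as labelled points and, per signal decile, the median and the percentile bands of all features. The Myc clone of plate 89, at 0.52, is the 1 clone outside the 5th to 95th percentile band.

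The clones were spotted from 176 source plates of 96 wells, and differences followed position on these plates. Across 16891 features with at least 3 adjoining wells, the difference of a clone and the median difference of its adjoining wells, clones of the same gene left out, correlated at 0.64 (Pearson's r across features, which share runs and plates). For adjoining spots on the array, over 15360 features, r was 0.22. The 5 wells around the Myc clone of plate 89 had a median of 0.56 (range 0.16 to 0.58), so the clone at 0.52 lay at the level of its neighbours. A neighbours' median of at least 0.5 was found for 1 of the 8 clones, this one, against 1.81% of all features. By run pair the clone was at 0.62, 0.66 and 0.28, and its neighbours were at 0.51, 0.68 and 0.29. The neighbours included Slc30a5 at 0.58 and Myef2 at 0.57.

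The 8 wells around Csf1 were all above 0, from 0.11 to 0.59, with a median of 0.33 against 0.32 for Csf1 itself. Plate 57 as a whole had a median of 0.32, which ranked 2 from the top among the 176 plates. With the median of the plate subtracted, Csf1 was at 0.01. The Myc clone of plate 89 was at 0.38 after that subtraction, from a plate median of 0.16. With the median of the adjoining wells subtracted in each run pair, the Myc clone of plate 89 was at 0.03 and Csf1 was just under 0. The part that position played in these results was not tested.

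Around the other clones the neighbours were nearer to 0, except around the dimmer Hif1a clone. The brighter Myc clone, at 0.16, had a neighbours' median of 0.10, and in each run pair the clone and its neighbours had the same sign. Jun, at 0.21, had a neighbours' median of 0.02, and Fosl1, at -0.21, had one of -0.04. Nfkbia's neighbours were at 0.05. The brighter Hif1a clone had 5 adjoining wells with a median of 0.08, and all 5 were lowest in run 3 with both antibodies, as the clone itself was, against 22.1% of all features. The dimmer Hif1a clone, in a corner well, had 3 neighbours at 0.54, -0.65 and -0.99, the lower 2 being the proteasome genes Psmb4 and Psmd1. Over all 24 values of 8 clones in 3 run pairs, 20 had the sign of the neighbours' median in that pair, against 73.5% of such values over all features. With the adjoining wells subtracted, the dimmer Hif1a clone moved up to 0.50 and Hif1a as a gene to 0.35, while the median of the 6 genes was 0.03.

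**Figure D4:**
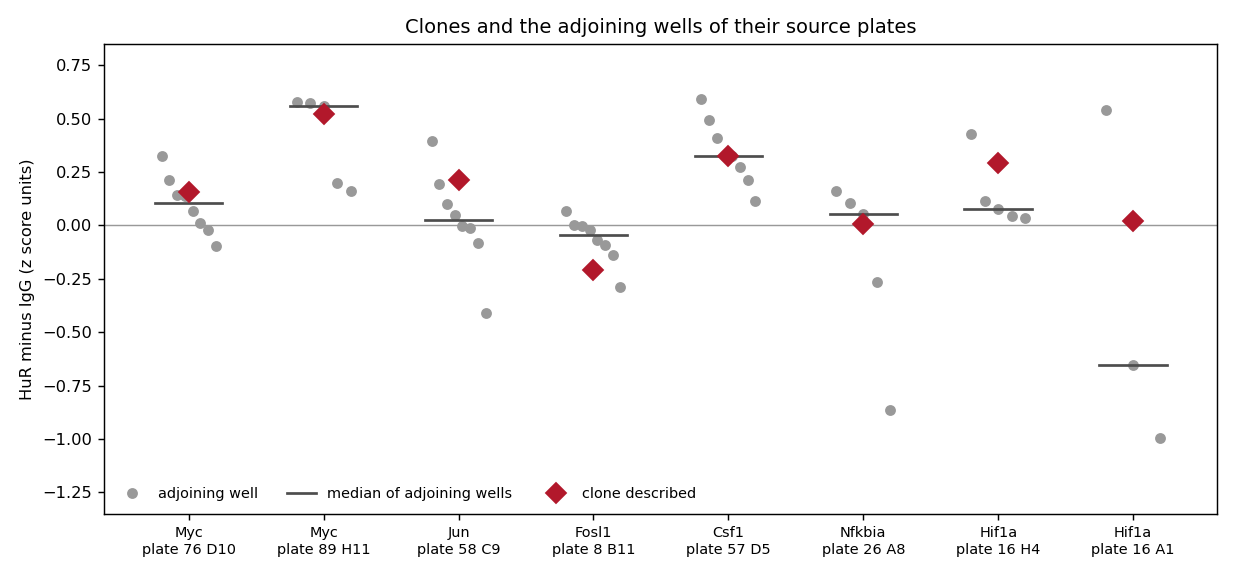
HuR minus IgG in z score units for each clone (diamond), for the clones in the adjoining wells of its source plate (grey circles), and their median (line). The Myc clone of plate 89 and Csf1 lie at the level of their adjoining wells, with medians of 0.56 and 0.33.

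Z ratios in the authors' deposited table were 1.73 and 0.52 for the Myc clones of plates 89 and 76, 1.07 for Csf1, 0.71 for Jun, -0.70 for Fosl1, 0.03 for Nfkbia, and 0.98 and 0.07 for the brighter and the dimmer Hif1a clone. In the authors' deposited table the two-tailed p-value of the Myc clone of plate 89 was listed as 0.00. The other clones ranged from 0.29 for Csf1 to 0.95 for the dimmer Hif1a clone in the authors' deposited table. The test behind this p-value is not named in the sources used here.

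Other genes of the same pathways were taken from 6 lists of partners, regulators and targets, of which 74 of 152 genes had a named clone. Of the 74, 30 (40.5%) were above 0, against 42.2% of all genes, and 9 (12.2%) were higher in every run pair, against 11.7%. Lower in every run pair were 5 (6.76%), against 13.1% of all genes. None reached 1 unit in either direction, against 0.988% of all genes higher and 0.103% lower.

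AP-1 partners and other immediate early genes had a median of 0.01 over 13 genes, 8 of them above 0. For this and the following lists, the share above 0 over all genes was 42.2%. Among those in the brighter 50%, Klf6, a Krüppel-like transcription factor, was the highest at 0.04 ± 0.06. Klf4, a related factor, was the lowest at -0.38 ± 0.11 on its brighter clone. The dimmer Klf4 clone was at -0.93 ± 1.49, and both clones together at -0.65 ± 0.78. Fos and Fosb, the partners that Jun binds in AP-1, were dim clones at 0.11 ± 0.27 and 0.15 ± 0.23.

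The Myc network had a median of -0.12 over 10 genes, 2 of them above 0. It ran from Nme1, a nucleoside diphosphate kinase, at -0.30 ± 0.77 to Trrap, an adaptor of histone acetyltransferases that Myc recruits, at 0.50 ± 0.77. Max, the partner of Myc, had no named clone.

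The NF-kappa-B pathway had a median of 0.02 over 12 genes. In every run pair 4 were higher and 1 was lower, against 11.7% and 13.1% of all genes. Btrc, the ubiquitin ligase adaptor that recognises phosphorylated I kappa B, was at 0.61 ± 0.50 on its brightest clone, whose adjoining wells had a median of 0.90. Its other clones were at -0.14 and 0.15. Map3k7, the kinase TAK1 that activates the I kappa B kinases, was at 0.55 ± 0.56 on plate 57, with a neighbours' median of 0.52. Commd1, a factor that promotes the turnover of NF-kappa-B, was the lowest in the brighter 50%, at -0.13 ± 0.16.

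The HIF and hypoxia list had a median of -0.04 over 19 genes, 5 of them above 0. Hmox1, heme oxygenase 1, was the highest in the brighter 50% at 0.48 ± 0.62, and Pgk1, a glycolytic kinase, the lowest at -0.70 ± 1.21. Arnt, the constitutive partner of Hif1a, was at -0.04 ± 0.23 on 2 dim clones. The prolyl hydroxylases that mark Hif1a for degradation were at 0.08 ± 0.10 (Egln1) and 0.04 ± 0.09 (Egln2). Each of these 3 regulators was within 1 SD of 0.

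The AU-rich element binding proteins and decay factors had a median of -0.10 over 16 genes, 6 of them above 0. Elavl1, the mRNA of HuR itself, was at 0.82 ± 0.12 and Parn, a poly(A) ribonuclease, at -0.28 ± 0.51. Zfp36, whose product competes with HuR for AU-rich elements, was at -0.12 ± 0.16 over 3 clones. The cytokine list had 4 genes on the array, all dim, with a median of 0.19. Among them Csf1r, the receptor for Csf1, was at 0.31 ± 0.24 at the 3.11th percentile of signal.

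**Figure D5:**
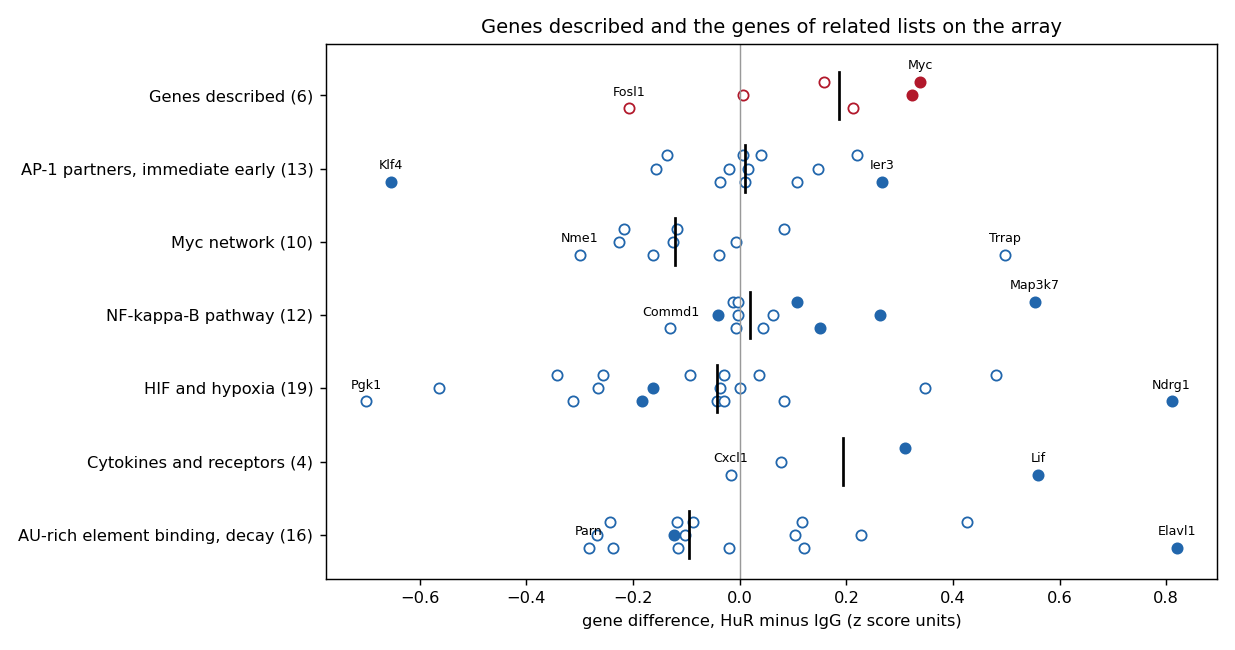
Gene differences, HuR minus IgG in z score units, for the 6 genes (red) and the 74 genes of the related lists (blue), 1 point per gene, filled where all 3 run pairs lie on the same side of 0, with each list's median as a black line and its lowest and highest gene named. The 6 genes have a median of 0.19, as has the cytokine list of 4 genes. The lists with over 4 genes have medians from -0.12 to 0.02.

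By Euclidean distance over the 6 centred run scores, the gene of the brighter 50% nearest to Myc was AU016126 (0.15), whose difference was 0.14 ± 0.51. The nearest to Nfkbia was Park7, which encodes DJ-1 (0.20), to Jun D3Ertd711e (0.29), to Fosl1 Cpd, a carboxypeptidase (0.31), and to Csf1 D2Abb1e (0.31). Hif1a had no such close match, and Med7, a Mediator subunit, was the nearest at 0.99. Med7 scored 1.26, -0.05 and 1.45 with HuR and 1.79, -0.44 and 0.50 with IgG, also lowest in run 3. Distances were taken between the brightest clones of each gene, over 4238 candidate genes.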

How the data were processed

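Per the file headers, the values that the authors deposited are z scores. They fill 6 array columns of 16896 spotted clones in 2 sections of 8448, and each column was found to be standardised (mean 0, SD 1) section by section. Per the labels' protocols, the recovered RNA was reverse transcribed with a radiolabelled nucleotide. Scanner, background handling and log base are not named in these sources. A z ratio and a p-value that the authors deposited are quoted as theirs.

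Each section of each column was shifted to a median of 0 with numpy 2.4.6 and pandas 2.3.3. HuR and IgG runs of the same number were paired. Their deviations from the mean of their antibody correlated at 0.42, 0.54 and 0.33 over all features, and those of unlike numbers at -0.48 to 0.08. The deviations of an antibody sum to 0 over its runs. Positive values for like numbers thus force negative ones among unlike numbers, and that contrast is partly built in. Genes with several clones took the median of the clones. Clones took the current symbol of their Entrez Gene number in GRCm38.p6 (7527 features) or else the symbol in the table (2676). Features with conflicting numbers (520) or no symbol (6173) stayed unnamed. The brighter 50% are the 8452 features at or above the median signal.

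With 1 sample per antibody no test was run. A difference of 1 unit served as the threshold. The genes and lists were chosen with earlier results of these data known. Named genes are the 6 genes, the highest and lowest gene of each list in the brighter 50%, and the nearest gene to each of the 6. Fos, Fosb, Max, the other clones of Btrc and Klf4, Map3k7, Arnt, Egln1, Egln2, Zfp36, Csf1r and Alb were named outside that rule after their values were seen. So were the marker genes, the genes in adjoining wells and the genes of the closing observations. The calculation was tested on simulated data with known shifts and independent noise. The simulation held no effect of plate position on the difference and no deviation shared by runs of the same number. It therefore cannot show how these affect the results.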

Additional observations from a re-analysis of the deposited data

How the results depend on the processing

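No difference of the 6 genes reached 1 unit under any alternative that was run. Of 67 alternative values for the 6 genes, 63 moved by less than the SD of the run pairs. The other 4 had a local or plate median subtracted. Many of the 63 could not have moved that far. Leaving out 1 of 3 run pairs, or taking their median, always shifts a gene by less than that SD. For genes with 1 clone, the choice of clone changes nothing. Some of the 63 changed sign, such as Fosl1 at 0.015 and Hif1a at -0.07 without pair 4. With the adjoining wells subtracted, Myc was at 0.066, Csf1 at -0.0067 and the median of the 6 genes at 0.0296. With the plate median subtracted, Csf1 was at 0.01. With adjoining array spots subtracted, Nfkbia was at -0.16. Leaving out single run pairs gave a median of the 6 genes of 0.0375 (without pair 4) to 0.23. The plate median and the removal of the Myc clone with raised neighbours, which gave a median of 0.16, were chosen after seeing the data. The 191 higher features became 523 at 0.6, 80 at 1.5 and 195 to 292 when a run pair was dropped, the last without pair 3. Lower features numbered 28, or 216 at 0.6, 0 at 1.5, 8 in the brighter 50% and 23 to 160 when a run pair was dropped, with 160 without pair 3 and 113 without pair 4. In the brighter 50%, the AP-1 list was at -0.16 over 3 genes and the NF-kappa-B list at 0.13 over 6, and the cytokine list had none. The cause of these changes was not tested. Runs were paired, but no test over independent samples was possible because there is 1 sample of either antibody. The sources do not say whether the runs of a sample were independent immunoprecipitations. The files give no signal over background, which limits what dim clones can show.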

Other observations

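On the related lists, 6 of 111 clones, of Elavl1, Lif, Ndrg1, Rbx1, Mga and Btrc, had all HuR scores above all IgG scores, against 3.88% of all features. The reverse held for 1 clone, of Odc1, against 2.56%. Other clones of the same genes went the other way, at -0.26 and -0.33 for Rbx1 and at -0.25 and -0.22 for Mga. The Mga clone that was higher with HuR lay at the 5.94th percentile of signal. The adjoining wells had medians of 0.29 for Elavl1, 0.28 for Rbx1, 0.30 for Mga and 0.90 for Btrc. For Lif and Ndrg1 these medians were 0.00 and 0.05. The 5 wells around Ndrg1 ranged from -0.48 to 0.81, so the highest was at the level of Ndrg1 itself. Lif encodes leukemia inhibitory factor, a cytokine that acts on muscle precursors, and was picked after its values were seen. Its 1 clone (Entrez Gene 16878) scored 0.33, -0.06 and 0.26 with HuR in the unnumbered run, run 3 and run 4, and -0.35, -0.47 and -0.33 with IgG. The difference was 0.56 ± 0.14 (SD, 3 run pairs), and 3.57% of all features were at least as high. Its 3 adjoining wells ranged from -0.15 to 0.16, so Lif lay above its neighbours, unlike the Myc clone of plate 89. Its signal was at the 44.9th percentile, below the brighter 50% of features. The authors' deposited table gave it a z ratio of 1.87.

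Zfp36l1, a relative of tristetraprolin that promotes decay of AU-rich mRNAs (Entrez Gene 12192), was at 0.43 ± 0.43, with scores of 0.71, -0.35 and -0.09 with HuR and -0.15, -0.35 and -0.51 with IgG. Its 8 adjoining wells had a median of -0.04, and the antibodies overlapped. Ier3, an immediate early gene (Entrez Gene 15937), was higher in every run pair by 0.27 ± 0.11, with 8 adjoining wells at a median of 0.28, the level of the clone itself. Ndrg1, a hypoxia-responsive gene (Entrez Gene 17988), was at 0.81 ± 0.84 at the 1.56th percentile of signal, where the 95th percentile of features in the same signal decile was 0.64.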
